A study of Mus musculus with 8 samples.

Results

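This section describes 9 genes of N-acetylaspartate metabolism and acetyl-CoA supply, out of 34094 genes measured, in the CA1 field of the mouse hippocampus. They are Nat8l, Rimkla, Rimklb, Folh1, Aspa, Slc13a3, Acss1, Acss2 and Acly, each found once by its symbol. RNA sequencing compared 4 wild-type (WT) libraries with 4 conditional knockout (cKO) libraries, in which Brpf1 was the target. Brpf1 encodes a scaffold protein that holds histone acetyltransferases together. All mice were C57BL/6 and 2 months old. The sample labels also call the cKO genotype a Brpf1 knockdown. The series title speaks of a hippocampus-specific loss, but the sources used here do not give the Cre driver, the exons removed or the mouse behind each library, and a protocol speaks of 3 pairs of mice. Every p-value below is therefore set against the spread among libraries, some of which may be technical. The 9 genes were chosen by their roles in these pathways, with earlier results of the same cKO and WT comparison known, among them the low Aspa reads in cKO. Their differences between the groups are therefore given as a description.

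N-acetylaspartate is one of the most abundant small molecules of the brain. Neurons make it from aspartate and acetyl-CoA, and oligodendrocytes, the myelinating glia, split it again into aspartate and acetate. The acetate can be turned back into acetyl-CoA, which feeds fatty acid and myelin lipid synthesis and is the donor for protein and histone acetylation. N-acetylaspartate can also be joined to glutamate, giving the neuropeptide N-acetylaspartylglutamate. Loss of the splitting enzyme, aspartoacylase, causes Canavan disease, a leukodystrophy.

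Depth was 42346644 to 49897832 gene reads in the WT libraries and 40330226 to 46559795 in the cKO libraries. Expression is given as normalized reads, that is, the read count over the size factor the authors used for that library. The targeted gene Brpf1 had 1358, 1451, 1473 and 1380.1 normalized reads in WT replicates 1 to 4 and 848, 1032, 897 and 1004 in cKO replicates 1 to 4, with no overlap. Its log2 fold change was −0.59 (limma adjusted p = 0.132), so the target itself did not pass the main test used below. In the authors' deposited table its FDR was 1.47e-07. A gene that does not pass limma here is therefore not read as unchanged. All 6 markers of CA1 pyramidal neurons were present in every library, among them Fibcd1 between 3865 and 6350 and Wfs1 between 1751 and 3412 normalized reads. Some libraries stood apart. Ttr, which marks choroid plexus, ranged from 3253 in WT replicate 1 to 149458 in WT replicate 2, and WT replicate 1 held 61 reads of 4 Y-linked genes, where no other library held more than 9. The CA1 marker Mpped1 had 5550.0, 6981, 2438 and 1269.5 normalized reads in WT and 6845, 6201, 1329 and 1717 in cKO, so replicates 1 and 2 stood above replicates 3 and 4 in both groups. Leave-out values are given for the 9 genes, and for other results where they are named.

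Aspa was the only member whose groups did not overlap, and its low reads in cKO were known when the genes were picked. It encodes aspartoacylase, the oligodendrocyte enzyme that cleaves N-acetylaspartate. The WT libraries had 945, 645, 790.2 and 980.2 normalized reads of Aspa and the cKO libraries 394, 434, 435 and 565. Every cKO library lay below every WT library, the closest pair being cKO replicate 4 and WT replicate 2. Aspa averaged 840.02 ± 154 for WT and 457 ± 74.6 for cKO (SD, n = 4), so the cKO mean was 54.4% of the WT mean. On the log2(normalized reads + 1) scale the fold change was −0.87 (SE 0.16, 95% interval −1.22 to −0.52). In limma over 26135 genes its unadjusted p was 0.000216 and its Benjamini-Hochberg adjusted p 0.261, so Aspa did not pass. In the authors' deposited table Aspa had an FDR of 4.77e-05 and is counted as lower in cKO. Leaving out any single library gave log2 fold changes between −0.99 and −0.79, among them −0.99 without WT replicate 2 and −0.81 without WT replicate 1.

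**Figure D1:**
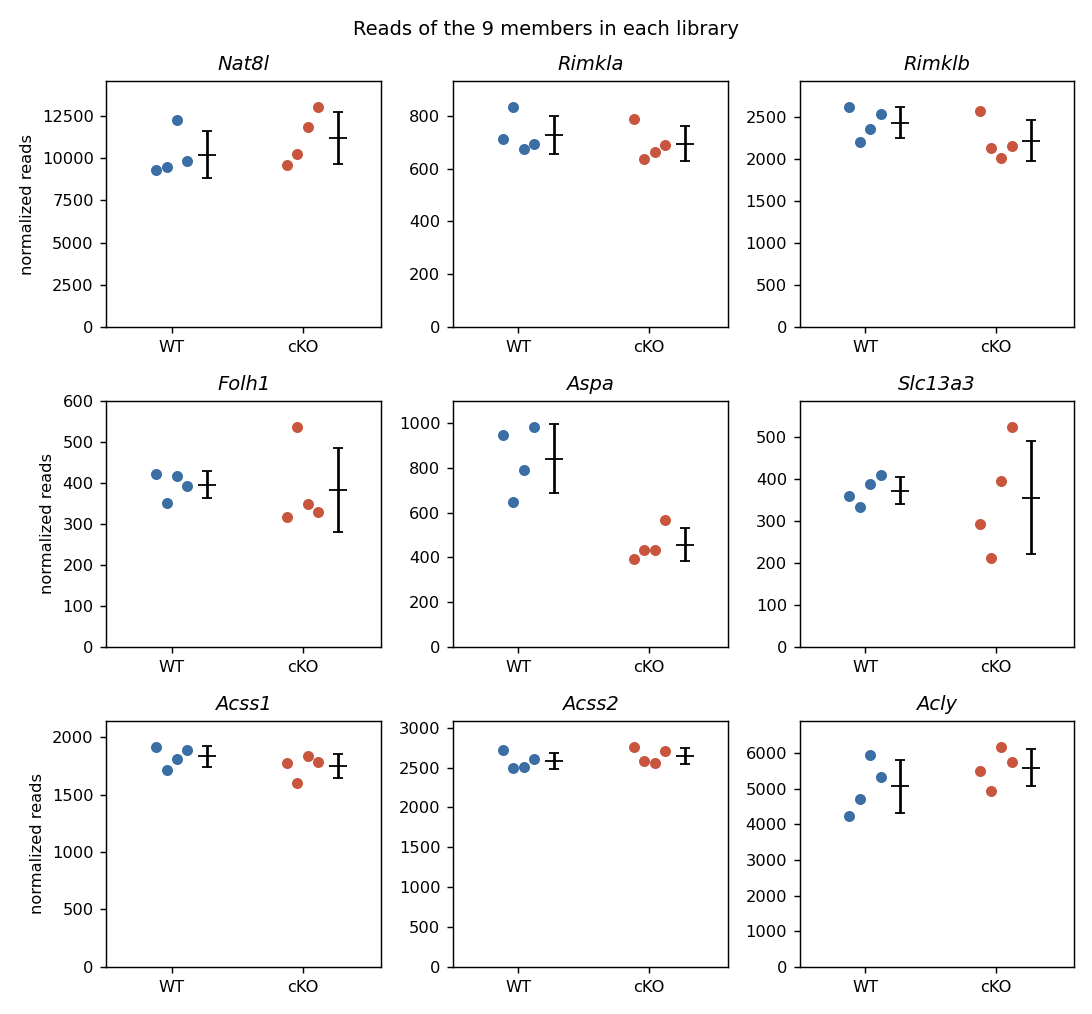
Normalized reads (linear axes from 0) of each of the 9 genes in the 4 WT libraries (blue) and 4 cKO libraries (red), with the mean and SD in black beside the points. The groups are separate for Aspa, 645 to 980.2 against 394 to 565, and overlap for the other 8 genes.

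Counts over the members are set here beside those over all genes, with nothing read from them, since this contrast was known when the genes were picked. With limma, 0 of 9 members passed an adjusted p of 0.05, beside 0.0191% of the 26135 genes tested. At an unadjusted p under 0.05, 1 of 9 did, beside 8.67% of all genes. By the FDR of the authors' deposited table, 1 of 9 was under 0.05, beside 0.657% of 34094 genes. The groups did not overlap for 1 of 9, beside 4.92% of the genes tested. That member was Aspa each time. All 9 members passed the filter on low values. Their median log2 fold change was −0.067, and that of all genes tested was −0.018. The other 8 members had log2 fold changes between −0.14 and 0.15 and limma adjusted p between 0.695 and 0.932.

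Nat8l encodes the aspartate N-acetyltransferase that makes N-acetylaspartate, mainly in neurons. Its normalized reads were 9266, 9451, 12237 and 9849 in WT and 9615, 10235, 11822 and 12992 in cKO. The ranges overlapped, and the highest WT library, replicate 3, lay above 3 of the cKO libraries. The log2 fold change was 0.13 (SE 0.12, 95% interval −0.13 to 0.39, limma adjusted p = 0.766). It ranged from 0.053 without cKO replicate 4 to 0.22 without WT replicate 3. With the mean of 22 oligodendrocyte markers, described below, as a covariate it was 0.38 (SE 0.10, limma unadjusted p = 0.00473, adjusted p = 0.268), the highest of 17 alternatives. With choroid plexus markers as the covariate it was 0.097, and after quantile normalization 0.064. The mean of the oligodendrocyte markers was lower in cKO, and within groups these markers varied with Nat8l (median r 0.63). The part of this in the 0.38 was not tested. Within each library, the log2 level of Aspa minus that of Nat8l, breakdown against synthesis, was −3.61 ± 0.35 for WT (SD, n = 4) and −4.61 ± 0.11 for cKO, and the groups did not overlap. These log2 differences are of reads, not corrected for gene length, so only their change between groups can be read. That change contains the difference of Aspa, which was known when the genes were picked, so it is no separate result. Aspa is mainly an oligodendrocyte gene and Nat8l mainly a neuronal one, and the part of the cell mix was not tested.

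Rimkla and Rimklb encode the ligases that join N-acetylaspartate to glutamate. Rimklb, the one with more reads, had 2609, 2204, 2358 and 2536 normalized reads in WT and 2571, 2124, 2005 and 2156 in cKO. Of the cKO libraries 3 lay below the lowest WT library, and cKO replicate 1 lay near the top of the WT range. Its log2 fold change was −0.14 (SE 0.095, 95% interval −0.35 to 0.074, limma adjusted p = 0.695). Rimkla had 713, 831, 673 and 693 in WT and 788, 635, 664 and 688 in cKO. The groups overlapped, each with 1 library above the rest, and the log2 fold change was −0.067 (SE 0.11, 95% interval −0.31 to 0.17, limma adjusted p = 0.890), and −0.0019 without WT replicate 2, its highest library.

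Folh1 encodes glutamate carboxypeptidase II, which cuts N-acetylaspartylglutamate back into N-acetylaspartate and glutamate outside the cell. Its normalized reads were 422, 350.5, 418 and 392 in WT and 318, 536, 349 and 328 in cKO. A single library, cKO replicate 2, was above all others, while the other cKO libraries were below the lowest WT library. The log2 fold change was −0.079 (SE 0.17, 95% interval −0.46 to 0.30, limma adjusted p = 0.932), and −0.25 without cKO replicate 2 (SE 0.12, limma adjusted p = 0.506).

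Slc13a3 encodes a sodium-coupled dicarboxylate transporter that can carry N-acetylaspartate into cells. It had 359, 334, 389 and 409 normalized reads in WT and 293, 212, 397 and 524 in cKO. The cKO libraries spread on both sides of the WT range, with a coefficient of variation of 37.8% against 8.86% in WT, the widest of the 9 genes in cKO. The log2 fold change was −0.14 (SE 0.24, 95% interval −0.67 to 0.39, limma adjusted p = 0.900). It was 0.082 without cKO replicate 2 and −0.35 without cKO replicate 4, so its sign rested on single libraries.

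Acss1, Acss2 and Acly make acetyl-CoA. Acss2 encodes the acetyl-CoA synthetase of cytosol and nucleus, which can recapture acetate freed from N-acetylaspartate or from histones. Its normalized reads were 2715, 2489, 2513 and 2612 in WT and 2757, 2578, 2552 and 2706 in cKO, the tightest spread of the members (coefficient of variation 4.01% in WT and 3.74% in cKO). The log2 fold change was 0.037 (SE 0.068, 95% interval −0.11 to 0.19, limma adjusted p = 0.915), and −0.011 after quantile normalization. A reduction of the size seen for Aspa lies outside this interval.

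Acss1 encodes the mitochondrial acetyl-CoA synthetase. It had 1914, 1716, 1808 and 1891 normalized reads in WT and 1778, 1600.2, 1838 and 1785 in cKO, with overlapping groups. Its log2 fold change was −0.067 (SE 0.077, 95% interval −0.24 to 0.10, limma adjusted p = 0.835). Acly encodes ATP citrate lyase, which makes cytosolic and nuclear acetyl-CoA from citrate. Acly had 4249.6, 4717, 5960.0 and 5342 normalized reads in WT and 5501, 4935, 6173 and 5750.2 in cKO. The lowest values were those of WT replicates 1 and 2, and the groups overlapped, with a log2 fold change of 0.15 (SE 0.11, 95% interval −0.097 to 0.39, limma adjusted p = 0.713). Without WT replicate 1 that value was 0.068.

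Acss1 shares 73 exon bases with an opposite-strand transcript, E130215H24Rik, and Acss2 shares 152 with Acss2os and 13 with Gss in the GENCODE vM21 annotation. The strand setting of the counting is not given, so reads in these stretches could belong to either partner. Acss2os had at most 7.77 normalized reads in any library and E130215H24Rik at most 40.4. Gss, which shares only the 13 bases, was far higher, between 946 and 1219 normalized reads. The other 7 members share no exon bases with another gene in that annotation.

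Levels can be compared between genes only per length. In normalized reads per kb of exon, using exon lengths of the basic GENCODE vM21 set, Nat8l was the highest member, at 1562 ± 211 in WT (SD, n = 4), followed by Acly at 1099 ± 162 and Acss2 at 676 ± 27.1. Acss1 (506 ± 24.9), Rimklb (502 ± 37.6) and Aspa (451 ± 82.6) followed, with overlapping ranges between neighbours in that order. Rimkla (178 ± 17.3) was lower than all of these, and Folh1 (127 ± 10.6) and Slc13a3 (106 ± 9.37) came last, with overlapping ranges. In cKO the order of the means was the same. Aspa, at 245 ± 40.04 per kb, there lay below Rimklb (458 ± 51.0) in all 4 libraries, where in WT it did so in 3 of 4.

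**Figure D2:**
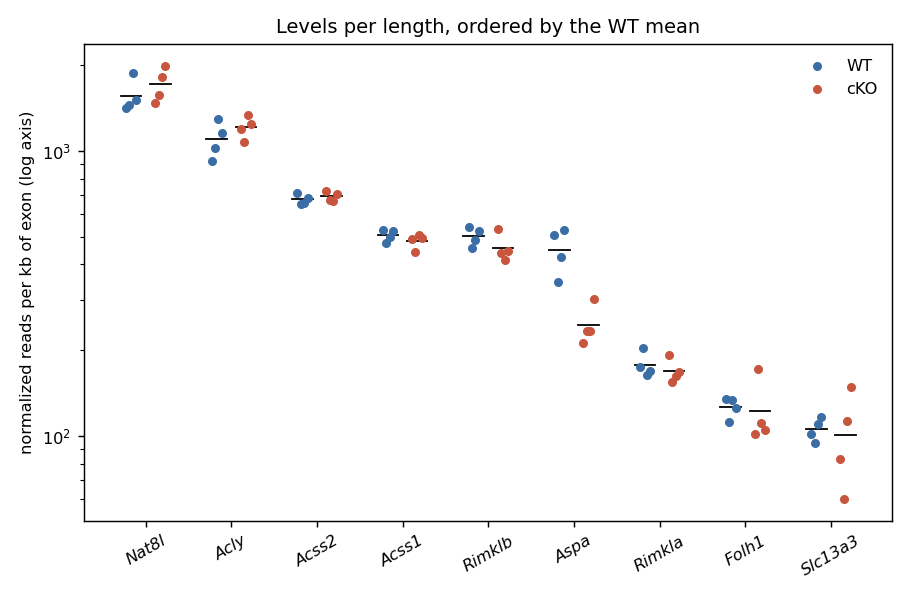
Normalized reads per kb of exon on a log axis for the 9 genes, ordered by the WT mean, with each library as a point (WT blue, cKO red) and each group mean as a black line. Levels run from 1562 for Nat8l to 106 for Slc13a3 in WT, and Aspa is at 451 in WT and 245 in cKO.

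Aspa was compared with 22 other oligodendrocyte markers, since it is transcribed mainly in that cell type. In these bulk samples fewer cells of a type and less RNA per cell cannot be told apart. All 22 markers had negative log2 fold changes (median −0.29, against −0.018 for all genes tested), 0 of 22 passed limma after adjustment, and 6 had an unadjusted p under 0.05, all 6 lower in cKO, beside 8.67% of all genes in either direction. Without WT replicate 3 or cKO replicate 1 the median was −0.19, with 20 and 21 of 22 negative. Ermn, a myelin-associated cytoskeletal gene, had 3919, 2875, 3608 and 3213 normalized reads in WT and 2061, 1455, 2330.4 and 2871 in cKO, a separation by a margin of only a few reads. Its log2 fold change was −0.68 (SE 0.18, limma adjusted p = 0.496). Ermn is the 1 of the 22 markers with an FDR under 0.05 in the authors' deposited table, at 0.0384. Opalin, which encodes a myelin membrane protein, had a log2 fold change of −0.76 (SE 0.24, limma adjusted p = 0.496) and Anln one of −0.41 (SE 0.14, limma adjusted p = 0.510). The abundant myelin gene Mbp was at 87.3% of its WT mean, with overlapping groups. Only Ninj2, averaging 50.9 ± 20.2 normalized reads for WT and 25.2 ± 10.6 for cKO (SD, n = 4), had a lower log2 fold change than Aspa among the 22.

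**Figure D3:**
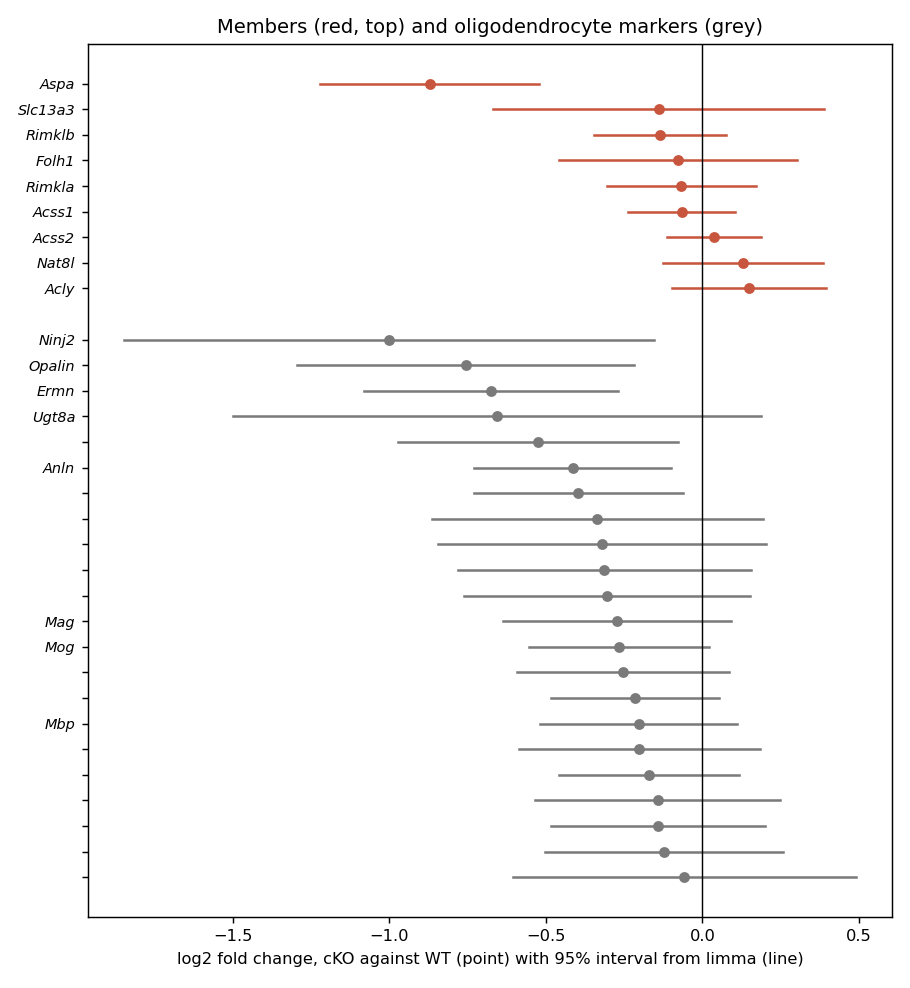
Log2 fold change of cKO against WT (point) with its 95% interval from limma (line) for the 9 genes (red) and 22 oligodendrocyte markers (grey), sorted within each set, with symbols for the markers the text names. Aspa, at −0.87, stands away from the other members, which lie between −0.14 and 0.15, and at the low end of the markers, whose median is −0.29.

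The mean log2 value of the 22 was 11.38, 11.03, 11.53 and 11.28 in WT and 10.69, 10.85, 10.99 and 11.29 in cKO, so the groups overlapped. The group means differed by −0.35, beside −0.87 for Aspa. In cKO replicate 4 the markers were as high as in WT replicate 4 and higher than in WT replicate 2, while its Aspa reads, 565, were below those of both. The log2 level of Aspa minus that marker mean was −1.50, −1.70, −1.91 and −1.35 in WT and −2.07, −2.09, −2.23 and −2.14 in cKO. Every cKO library was below every WT library on this measure, by 0.52 on average. Against single markers, the same difference separated the groups for Mbp and Mog but overlapped for Mag, Ermn and Opalin. With the marker mean as a covariate, the log2 fold change of Aspa was −0.60 (SE 0.17, limma unadjusted p = 0.00688, adjusted p = 0.273). With the mean of 10 choroid plexus markers as the covariate it was −0.96 (SE 0.15, limma adjusted p = 0.245). The low Aspa reads in cKO were known when the genes were picked. These comparisons of Aspa with markers are therefore descriptions, and a loss beyond that of the markers was not tested.

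**Figure D4:**
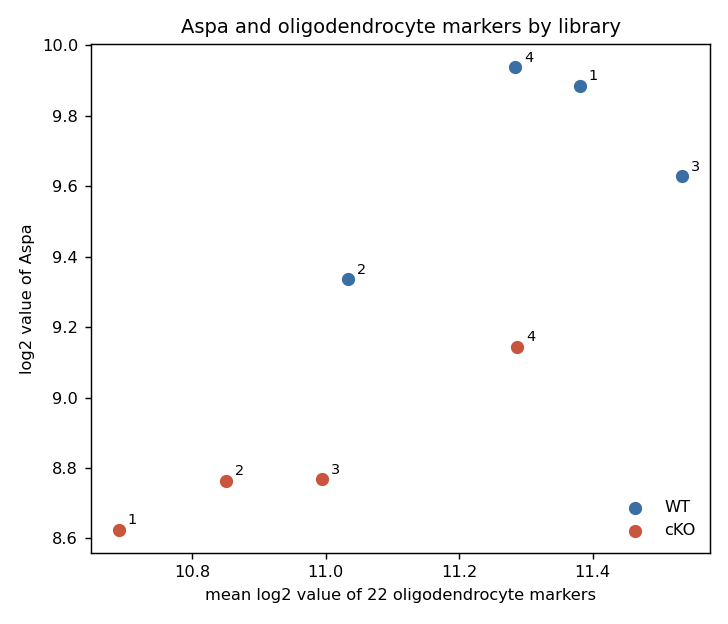
Log2 value of Aspa against the mean log2 value of 22 oligodendrocyte markers, each point a library labelled with its replicate number (WT blue, cKO red). Aspa is lower in every cKO library, while the marker means overlap: cKO replicate 4, at 11.29, lies beside WT replicate 4, at 11.28.

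The other cell types were read from marker lists too, in none of which a marker was at 0 in all libraries. Summed normalized reads of the 22 oligodendrocyte markers ranged from 146231 to 210495 in WT and from 120327 to 186634 in cKO. Those of 12 neuron markers ranged from 359066 to 412717 and from 392725 to 439555. Of the neuron markers 10 of 12 had positive log2 fold changes (median 0.16), 0 passed limma after adjustment and 5 had an unadjusted p under 0.05, all 5 higher, again beside 8.67% of all genes. Thy1, a neuronal surface glycoprotein gene, averaged 19023 ± 1066 normalized reads for WT and 23026 ± 1925 for cKO (SD, n = 4, limma adjusted p = 0.496). For 12 astrocyte markers the sums ranged from 166854 to 223143 in WT and from 201993 to 213641 in cKO, and 7 of 12 were positive (median 0.018). All 10 choroid plexus markers were negative (median −0.78), with sums from 5746 to 170124 in WT and from 10930 to 48767 in cKO. Without WT replicate 2 that median was −0.098, with 6 of 10 negative. Nat8l and Acly, both with positive log2 fold changes, thus had differences of the same sign as most neuron markers. The part of the neuron markers in their values was not tested. The 2 negative neuron markers were Slc17a7 (−0.14) and Gad2 (−0.0011). Of the 6 CA1 pyramidal markers, 2 had positive and 4 negative log2 fold changes (median −0.037), with 0 past limma after adjustment. All 7 microglia markers were positive (median 0.20) and all 6 ependymal markers negative (median −0.40), with 0 past limma after adjustment in either list. The 9 oligodendrocyte precursor markers were split, with 4 positive and 5 negative (median −0.076). Of the meningeal and fibroblast markers 3 of 8 were positive (median −0.056), and of the endothelial markers 2 of 6 (median −0.027). Again 0 passed limma after adjustment.

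The deviation of each library from its group mean does not contain the difference between the groups. Across the 8 libraries, the deviations of Aspa had a median Pearson r of 0.55 with those of the oligodendrocyte markers, 0.43 with astrocyte markers and −0.58 with choroid plexus markers, against a median of 0.034 with the 14514 other genes compared. For Nat8l the median r was 0.79 with neuron markers and 0.63 with oligodendrocyte markers. Folh1 had its highest median r with astrocyte markers, at 0.46, and Slc13a3 with neuron markers, at 0.58. These are descriptions over 8 libraries that share depth and dissection, and no test is given.

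Members also varied together in pairs. The highest r between members was 0.87, for Acss2 and Rimklb, followed by 0.74 for Nat8l and Acly. The lowest was −0.68, for Folh1 and Rimkla. Among all genes compared, the deviations most like those of Aspa were those of Rab39b (r = 0.96), Abhd14a (r = 0.96) and Cldnd1 (r = 0.95). For Nat8l they were Xpr1, Tmem55b and Samd4b (r = 0.99, 0.99 and 0.98), for Slc13a3 Rims4, Rasgef1b and Pitpnm3 (r = 1.00, 0.99 and 0.99), and for Acss1 Fes, Fgf12 and Hmgcs1 (r = 0.98 each). With 8 libraries and so many genes, the best match of every member had an r of at least 0.96. None of these 12 similar genes passed limma for cKO against WT, beside 0.0191% of the 26135 genes tested, and nothing is read from this count. Their limma adjusted p ran from 0.594 for Rab39b to 0.986 for Cldnd1 and Fes.

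The wider pathways were read from 6 lists of 89 genes in all, every one of which was tested. With limma 0 of the 89 passed after adjustment, and 11 had an unadjusted p under 0.05, which is 12.4% beside 8.67% of all genes. The counts per list below stand beside the same 8.67%. Genes whose groups did not overlap stand beside 4.92% of the genes tested. In the list of partners of N-acetylaspartate and N-acetylaspartylglutamate, 7 of 14 had positive and 7 negative log2 fold changes (median −0.015). The genes with the smallest p were those that supply aspartate. Got2, the mitochondrial aspartate aminotransferase, had 6184, 6981, 7273 and 7353 normalized reads in WT and 8100.5, 8287, 9024 and 8703 in cKO. The lowest cKO library exceeded the highest WT library, and the log2 fold change was 0.30 (SE 0.076, limma adjusted p = 0.463). Got2 is also the 1 context gene past an FDR of 0.05 in the authors' deposited table, at 0.0215. It shares 379 exon bases with the opposite-strand transcript Gm45760. Slc25a12, the neuronal carrier that exports aspartate from mitochondria, had 5217, 5793, 6531 and 6195 in WT and 6959.5, 6594, 7079.6 and 7034 in cKO, again without overlap (log2 fold change 0.23, SE 0.079, limma adjusted p = 0.512). Got1, the cytosolic aminotransferase, overlapped between groups (log2 fold change 0.23, SE 0.10, limma adjusted p = 0.581). Most neuron markers, as given above, also had positive log2 fold changes, while 4 of the 6 CA1 pyramidal markers had negative ones. The part of the neuron markers in these values was not tested.

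The receptor and the second peptidase of N-acetylaspartylglutamate were compared as well. Grm3, the metabotropic receptor it acts on, averaged 1590.3 ± 205 normalized reads for WT and 1582 ± 497 for cKO (SD, n = 4, limma adjusted p = 0.968), and Naalad2, a homolog of Folh1, had 79.3 ± 13.6 and 73.5 ± 20.7 (limma adjusted p = 0.912). These genes fall outside the naming rule and were added after their values were seen.

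Pyruvate dehydrogenase, which makes acetyl-CoA from pyruvate, was covered by 14 genes with its pyruvate carriers and regulators. Of these 10 were positive (median 0.042), 0 passed limma after adjustment and 2 had an unadjusted p under 0.05. Pdk2, a kinase that inhibits the complex, had 2321, 3279, 3475 and 3050.3 normalized reads in WT and 3399, 4872, 3738 and 4107 in cKO, with overlapping groups (log2 fold change 0.41, SE 0.14, limma adjusted p = 0.510). The complex subunits Dlat and Pdhx were higher in every cKO library than in any WT library, by small amounts (log2 fold changes 0.17, SE 0.069, and 0.14, SE 0.067, limma adjusted p = 0.536 and 0.587).

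The citrate route and the cytosolic users of acetyl-CoA, 14 genes, had 12 positive log2 fold changes (median 0.091), 0 past limma after adjustment and 3 with an unadjusted p under 0.05. Acat2, a cytosolic thiolase that starts sterol synthesis, had 1127, 1407, 1417 and 948 normalized reads in WT and 1560.2, 1540.0, 1579.8 and 1589 in cKO. The groups were separate, and the cKO libraries lay close together (log2 fold change 0.38, SE 0.13, limma adjusted p = 0.499). Acot7, a brain acyl-CoA thioesterase, had a log2 fold change of 0.25 (SE 0.091, limma adjusted p = 0.517).

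Among 19 genes for acetyl-CoA from fat, ketones and carnitine, 13 were negative (median −0.077), 0 passed limma after adjustment, and 1 had an unadjusted p under 0.05 in each direction. Slc16a7, the neuronal monocarboxylate transporter, had 3269 and 3117 normalized reads in WT replicates 1 and 2 but 689 and 631 in WT replicates 3 and 4, and 591, 368, 610 and 540.1 in cKO. The WT libraries thus stood at separate levels, with WT replicates 3 and 4 just above the highest cKO library, and the log2 fold change was −1.49 (SE 0.62, limma adjusted p = 0.574). Without WT replicates 1 and 2 it was −0.35 (SE 0.21, limma adjusted p = 0.960). Slc16a7 shares 179 exon bases with the opposite-strand transcript Gm47862. Cpt2, of the carnitine shuttle, averaged 245 ± 60.7 for WT and 181.01 ± 30.1 for cKO (SD, n = 4, limma adjusted p = 0.583).

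Myelin lipid synthesis, which draws on acetyl-CoA in oligodendrocytes, had 12 of 16 negative log2 fold changes (median −0.12), 0 past limma after adjustment and 1 with an unadjusted p under 0.05. Elovl7, a fatty acid elongase, had 719.9, 1366, 895 and 1093 normalized reads in WT and 793, 522, 777 and 711 in cKO, with overlapping groups (log2 fold change −0.52, SE 0.20, limma adjusted p = 0.521). Leaving out WT replicate 2, its highest library, gave −0.36. Ugt8a, which makes galactosylceramide and is also in the oligodendrocyte list, had 2285 ± 523 and 1555 ± 648 (SD, n = 4, limma adjusted p = 0.633). Scd3, a fatty acid desaturase, had 136 ± 24.8 and 108 ± 14.6 (limma adjusted p = 0.642). The negative sign is shared with the oligodendrocyte markers, whose part in these values was not tested.

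Acetyltransferases that use acetyl-CoA on proteins had 8 of 12 positive log2 fold changes (median 0.051), 0 past limma after adjustment and 1 with an unadjusted p under 0.05. That gene, Kat7, which encodes a histone acetyltransferase, averaged 2163 ± 242 normalized reads for WT and 2593 ± 249 for cKO (SD, n = 4, limma adjusted p = 0.519). Kat2b and the N-terminal acetyltransferase gene Naa10 had limma adjusted p of 0.661 and 0.662.

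**Figure D5:**
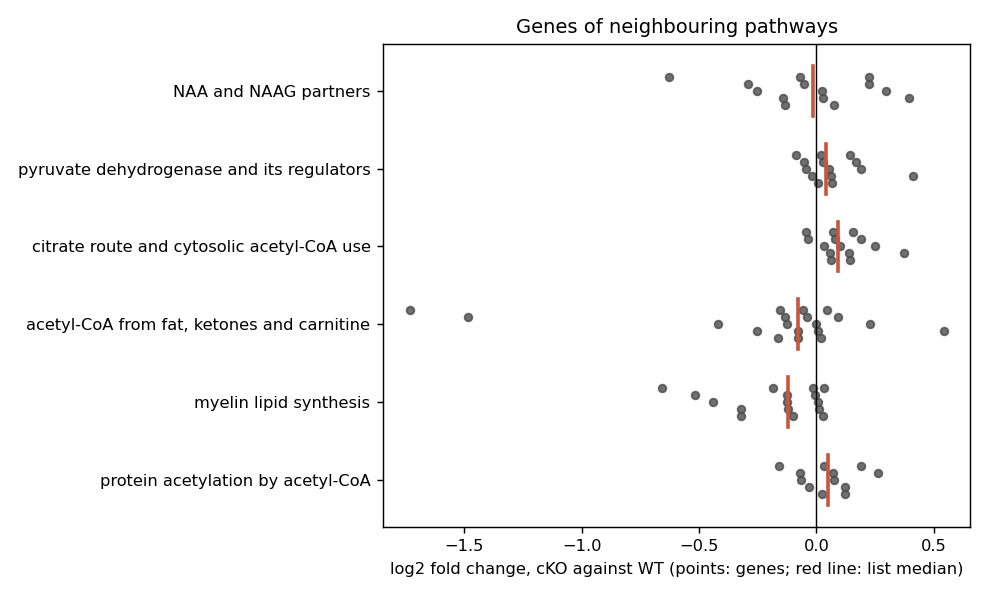
Log2 fold change of cKO against WT for each gene (point) of 6 lists of neighbouring pathways, with the list median as a red line. The medians lie between −0.12 for myelin lipid synthesis and 0.091 for the citrate route and cytosolic acetyl-CoA use, and the lowest points of the fat, ketone and carnitine list are Cpt1b and Slc16a7. Cpt1b had only 122 reads over all 8 libraries, with 0 in cKO replicate 3. It shares 2744 of its 2895 exon bases with Gm44502 on the same strand.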

How the data were processed

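RNA of hippocampal CA1 was sequenced from 4 WT and 4 cKO libraries, grouped by their titles, with a stranded mRNA kit per the labels' protocols. STAR, StringTie and DESeq2 were used and the genome build was mm9, per the submitters' processing notes. The sources used here do not give their roles, the annotation or the strand setting. The authors deposited a log2 value per gene and library, which equals log2(reads / size factor + 1): 100% of values gave whole reads (tolerance 0.001). The deposited table also holds the authors' p-value and FDR, from a test not stated.

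The main test was limma 3.58.1 in R 4.3.3 (trend, robust, no covariate) on the deposited log2 values, pseudocount 1, for 26135 genes with at least 1 normalized read in at least 4 libraries, with Benjamini-Hochberg adjustment and a threshold of 0.05. It called 5 genes, 2 higher and 3 lower, and limma-voom on the recovered reads called 4. Replicates differed by more than sampling noise (chi-square per degree of freedom at least 28.8). Depth is given with the samples, and each member had 211 to 13568 reads per library. Exon lengths and overlaps came from GENCODE vM21 (GRCm38), a later build than the authors', so no coordinates are printed.

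The members and lists were chosen with earlier results of these data known. Named genes are the 9 members, per list up to 3 genes with the smallest p, and per member the 3 genes with the most similar deviations (mean log2 of at least 5, regular symbol). The text names a part of them. Some items are not reported here. Alternatives were quantile normalization, no filter, a filter at 10, a pseudocount of 0.1, array weights, limma-voom, a replicate block, marker covariates and leaving out each library. Leave-out values for Slc16a7, Elovl7 and 3 marker lists were added after seeing the data. matplotlib 3.10.9 drew the figures.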

Additional observations from a re-analysis of the deposited data

Results flagged for a closer look

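A sample far from the rest of its group of 4 was sought by Dixon's ratio in 64 groups of values, and 3 were found, where chance gives about 1 in 20. Folh1 in cKO replicate 2 had 536 normalized reads, against a cKO median of 338. The log2 level of Rimklb minus that of Rimkla was 1.41 in WT replicate 2, against a WT median of 1.84. The mean log2 value of the acetyltransferase list was 10.78 in WT replicate 1, against a WT median of 10.83.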

How the results depend on the processing

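The log2 fold change of Aspa was negative under all 17 alternatives, from −0.99 to −0.60, and its limma adjusted p ranged from 0.159 to 0.633, so it passed under none. No member passed under any alternative. Nat8l, Rimkla, Rimklb, Folh1, Acss1 and Acly kept their sign under all 17. Their sizes moved: Nat8l ranged from 0.053 to 0.38, Rimkla from −0.20 to −0.0019, Rimklb from −0.21 to −0.090, Folh1 from −0.25 to −0.0010, Acss1 from −0.098 to −0.018 and Acly from 0.068 to 0.26. Slc13a3 became 0.28 with the oligodendrocyte marker covariate and ranged from −0.35 to 0.082 over the fits without 1 library, and Acss2 became −0.011 with quantile normalization. The count of genes past limma, 5 as reported, was 8 with array weights and 3 with the oligodendrocyte marker covariate, and 4 to 7 without 1 library. The causes were not tested. With the replicate block the count was 2, and Aspa had an adjusted p of 0.484. Over 16721 genes, deviations of same-numbered WT and cKO libraries had r of 0.035, 0.010, 0.059 and −0.018. No WT library correlated best with the cKO library of its own number. Such an r over all genes cannot show a batch that acts on few genes. Mpped1, given above, split replicates 1 and 2 from 3 and 4 in both groups, and the cause was not tested. With 4 libraries a group, the 95% intervals ranged in width between members, from −0.11 to 0.19 for Acss2 to −0.67 to 0.39 for Slc13a3, and differences inside a gene's own interval could not be resolved.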
